A study of Mus musculus with 4 samples.

Results

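Cycling radial glia are the dividing neural stem cells of the developing cerebral cortex, and 439 cells of 7210 were placed in this class across 4 single-cell RNA libraries. Members were chosen by measured counts. A cell needed 500 counts or more, 300 genes or more, and mitochondrial genes at 10% of its counts or less. It also needed at least 3 counts over the division genes Mki67, Top2a and Cenpf, and at least 3 over the radial glia genes Sox2, Pax6, Hes5 and Slc1a3. Cells with any count of Eomes, the factor of intermediate progenitors, were left out. Cells with more than 1 count over Dlx1 and Dlx2, factors of inhibitory neurons, or more than 2 over Olig1 and Olig2, factors of the oligodendrocyte lineage, were left out too. The levels of the 12 genes named here therefore describe the class and support nothing. No limit was set on astrocyte genes, so the rule does not separate dividing radial glia from dividing astrocyte-like cells. The class name is that of the rule.

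The study compared mice with and without Tsku, which encodes the secreted proteoglycan Tsukushi. Cerebral cortex was taken at birth (P0) and in the embryo (E14.5), from 1 mouse per group: P0 knockout (KO), P0 wild type (WT), an embryo labelled E14.5 KO, and E14.5 WT. Tissue was dissociated with trypsin, and 15000 cells per sample entered the bead-capture kit, per the labels' protocols. Strain, allele and number of litters are stated neither in the labels nor in the processing notes. With 1 animal per group the KO and WT libraries of an age cannot be tested against each other across animals, whereas the ages have 2 animals each. Every interval covers counting error only.

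Radial glia span the wall of the embryonic cortex and divide at the ventricular surface, where they renew themselves and produce neurons, directly or through intermediate progenitors. Notch signalling, acting through Hes genes, holds them in the progenitor state. Towards birth the cells that remain turn from making neurons to making astrocytes and oligodendrocytes. Genes of late G2 and mitosis are commonly switched on through a promoter element called the cell cycle genes homology region (CHR) together with CCAAT boxes, while Hes5 is a direct target of the Notch factor RBPJ.

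The promoters of Mki67, Top2a, Cenpf and Hes5, which the rule uses, and of the mitotic cyclin gene Ccnb1 are shown, because each holds letters of at least 1 of those elements. Sequences are from RefSeq on build GRCm38.p6, from 250 bases before to 30 bases after each gene's start, read along the gene's strand. Mki67 lies at chr7:135716350-135716629, Top2a at chr11:99024160-99024439, Cenpf at chr1:189688057-189688336 and Ccnb1 at chr13:100786457-100786736, all on the minus strand, and Hes5 at chr4:154960673-154960952 on the plus strand. In the first 4, capitals mark the CHR letters TTTGAA and the CCAAT box, searched on both strands, so their complements appear as TTCAAA and, for the box, as ATTGG, and they may adjoin or overlap. In Hes5 capitals mark only the RBPJ letters TTCCCAC, also searched on both strands.
Mki67: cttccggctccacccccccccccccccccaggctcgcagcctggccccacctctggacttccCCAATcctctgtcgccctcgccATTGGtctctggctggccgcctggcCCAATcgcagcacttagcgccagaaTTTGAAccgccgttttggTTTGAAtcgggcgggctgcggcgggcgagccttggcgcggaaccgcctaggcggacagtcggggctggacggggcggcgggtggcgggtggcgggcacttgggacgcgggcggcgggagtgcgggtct
Top2a: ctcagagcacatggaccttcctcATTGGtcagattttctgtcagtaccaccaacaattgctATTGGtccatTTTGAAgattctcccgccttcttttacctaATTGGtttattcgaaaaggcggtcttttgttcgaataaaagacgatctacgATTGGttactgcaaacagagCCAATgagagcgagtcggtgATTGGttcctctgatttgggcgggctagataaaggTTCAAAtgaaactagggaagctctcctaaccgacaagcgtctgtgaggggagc
Cenpf: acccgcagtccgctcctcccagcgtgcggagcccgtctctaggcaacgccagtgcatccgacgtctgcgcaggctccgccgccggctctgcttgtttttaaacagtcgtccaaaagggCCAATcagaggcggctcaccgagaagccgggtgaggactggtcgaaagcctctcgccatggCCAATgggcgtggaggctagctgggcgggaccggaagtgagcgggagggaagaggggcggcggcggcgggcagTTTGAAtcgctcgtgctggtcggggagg
Ccnb1: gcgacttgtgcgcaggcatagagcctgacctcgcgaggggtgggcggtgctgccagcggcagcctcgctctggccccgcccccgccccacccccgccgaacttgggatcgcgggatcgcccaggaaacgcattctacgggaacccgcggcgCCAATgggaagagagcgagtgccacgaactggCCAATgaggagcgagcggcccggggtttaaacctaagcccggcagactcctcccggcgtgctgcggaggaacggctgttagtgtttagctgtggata
Hes5: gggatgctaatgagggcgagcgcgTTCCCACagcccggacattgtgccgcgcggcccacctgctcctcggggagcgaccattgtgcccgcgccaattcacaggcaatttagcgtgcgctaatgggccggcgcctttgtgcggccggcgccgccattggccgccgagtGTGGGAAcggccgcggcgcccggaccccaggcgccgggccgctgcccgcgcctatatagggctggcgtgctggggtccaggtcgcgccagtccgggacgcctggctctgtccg
Mki67, a coat protein of mitotic chromosomes, held 2 CHR matches and 3 CCAAT boxes in this window. Top2a, the topoisomerase that untangles replicated chromosomes, held 2 and 6, and Cenpf, a kinetochore protein, held 1 and 2. Ccnb1, the cyclin that starts mitosis, held 2 CCAAT boxes and no exact CHR match. Hes5 held 2 RBPJ matches, and 0.263% of 27025 RefSeq windows of 250 bases before to 50 after a start had at least 2. Over the same windows, CHR letters were found in 31 of 47 matched genes of a G2 and mitosis list, or 66.0%, against 18.1% of all windows. Both elements stood together in 53.2% of that list and in 7.12% of all windows. The S phase list held CHR letters in 5 of 31 windows, or 16.1%, and CCAAT letters in 71.0%, against 37.9% of all windows. The radial glia identity list held CHR letters in 1 of 19 windows. A match of letters is a description of the window and not a measured binding site.

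Members numbered 55 in P0 KO, 24 in P0 WT, 323 in the library labelled E14.5 KO and 37 in E14.5 WT. Their median depth was 6277, 6157, 3699 and 8024 counts per cell in that order, so the most numerous members were the shallowest. Tsku, the targeted gene, had 0 counts in all cells of P0 KO and 42 in P0 WT, whereas the library labelled E14.5 KO held 74 and E14.5 WT held 54. Scaled to 1000000 counts of the library these are 0 (exact Poisson 95% interval 0 to 0.415), 6.95 (5.01 to 9.40), 5.14 (4.03 to 6.45) and 9.63 (7.24 to 12.6), so the labelled E14.5 KO level lay below that of E14.5 WT with intervals that did not overlap. The counts at E14.5 go against the label, and it is written as a label throughout. Among members Tsku had 0, 1, 7 and 4 counts in the same order. The labelled E14.5 KO members also held 781 counts of Xist and 0 of Y-linked Ddx3y, and the E14.5 WT members held 1 and 39, so sex and label cannot be told apart at E14.5. At most 2 barcodes were shared by any pair of libraries, and none of them was a member in both.

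Some members carried RNA of other cell types. The types searched were projection neurons, inhibitory neurons, oligodendrocyte precursors, microglia, endothelium, pericytes, meninges, choroid plexus and ependyma. Astrocyte, intermediate progenitor and erythroid lists were not used for this. The rule allows 1 or 2 counts over Olig1 and Olig2. Members with such counts numbered 23 of 55 in P0 KO and 9 of 24 in P0 WT. At E14.5 they numbered 31 of 323 in the labelled KO library and 3 of 37 in WT. Cells with at least 10 counts over the markers of another type numbered 10 of 55 in P0 KO, 3 of 24 in P0 WT, 47 of 323 in the labelled E14.5 KO library and 8 of 37 in E14.5 WT. They held 23.4%, 14.8%, 22.2% and 46.4% of the members' counts. In E14.5 WT, 3 cells of over 30000 counts held 37.6% of all member counts, and 95.1% of the 14472 choroid plexus marker counts lay in 1 cell. Ttr, the transthyretin of choroid plexus, was at 0 in P0 KO and 1 in P0 WT, against 935 and 14254 counts at E14.5. The main ratios between the E14.5 libraries, and a few of the age differences, are therefore given with and without the 3 deep cells. Doublets were not removed from the main values, and an alternative leaves out the 5% of cells with the highest Scrublet doublet scores in each library. That removed 5 of 55, 4 of 24, 30 of 323 and 2 of 37 members.

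The markers of the class were present in every library. Mki67 stood at 1016 counts per 1000000 summed member counts (CPM) in P0 KO, 1302 in P0 WT, 1772 in the labelled E14.5 KO library and 1014 in E14.5 WT, and was counted in 45, 22, 308 and 34 members. Sox2, the factor of neural stem cells, stood at 793, 819, 930 and 481 CPM and was counted in 50, 21, 297 and 34 members. Pax6, the factor of cortical radial glia, stood at 296, 292, 332 and 232 CPM. Hes5 stood at 925 and 1264 CPM in P0 KO and P0 WT, against 240 and 147 CPM in the labelled E14.5 KO library and E14.5 WT. Its levels at P0 lay above both E14.5 levels, and the same held for Slc1a3, the glutamate transporter GLAST, at 1725 and 1779 CPM against 428 and 487 CPM. Because Slc1a3 and Hes5 enter the rule, cells at P0 passed it with more room. The median sum over the 4 radial glia genes was 22 in P0 KO and 24.5 in P0 WT, against 7 and 13 in the labelled E14.5 KO library and E14.5 WT. Of the labelled E14.5 KO members, 32 sat at the limit of 3 and 37 further cells fell just short with 2. For the division genes the sum sat at 3 in 8, 1, 25 and 2 members, and 7, 5, 24 and 2 cells fell short with 2.

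Cycling radial glia made up a smaller share of cells at P0 than at E14.5 at full depth. They were 3.83% of cells in P0 KO (55 of 1436, exact Clopper-Pearson 95% interval 2.90 to 4.96) and 2.29% in P0 WT (24 of 1047, 1.47 to 3.39). In the labelled E14.5 KO library they were 7.86% (323 of 4107, 7.06 to 8.73), and in E14.5 WT 5.97% (37 of 620, 4.24 to 8.13). The P0 intervals and the E14.5 intervals overlapped only between P0 KO and E14.5 WT. The log2 ratio of the shares was 0.74 (0.06 to 1.42) for P0 KO over P0 WT, but 0.31 (-0.26 to 0.88) with cells thinned to 2000 counts and 0.47 (-0.28 to 1.23) with at least 5 division counts required, intervals that include 0. At full depth it was 0.40 (-0.08 to 0.87) for the labelled E14.5 KO library over E14.5 WT. For P0 over E14.5 it was -1.38 (-2.11 to -0.65) in WT and -1.04 (-1.44 to -0.63) in the KO-labelled pair.

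Depth moved these shares, because the rule counts reads. With every cell thinned to 2000 counts, the mean share over 20 draws was 4.39% in P0 KO, 3.54% in P0 WT, 6.62% in the labelled E14.5 KO library and 3.69% in E14.5 WT. At that depth 1027 cells of the labelled E14.5 KO library were too shallow to enter, against 2 in each of the other libraries. The ratio of P0 WT over E14.5 WT was then -0.06, and thinned to 1500 counts it was 0.32, so the age difference in WT was not held at equal depth. Thinning also weakens the rule's exclusions, since an oligodendrocyte-lineage cell with few Olig1 and Olig2 counts left passes. At full depth that exclusion removed 71 cells in P0 KO, 48 in P0 WT, 13 in the labelled E14.5 KO library and 10 in E14.5 WT that met the 2 minimum counts. With the required genes thinned and the exclusions read at full depth, the shares were 2.29%, 1.54%, 6.07% and 2.86% in the same order. The log2 ratio of P0 over E14.5 was then -0.90 (-1.86 to 0.06) in WT, an interval that includes 0, and -1.40 (-1.93 to -0.88) in the KO-labelled pair. That of the labelled E14.5 KO library over E14.5 WT was 1.08 (0.39 to 1.78).

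**Figure D1:**
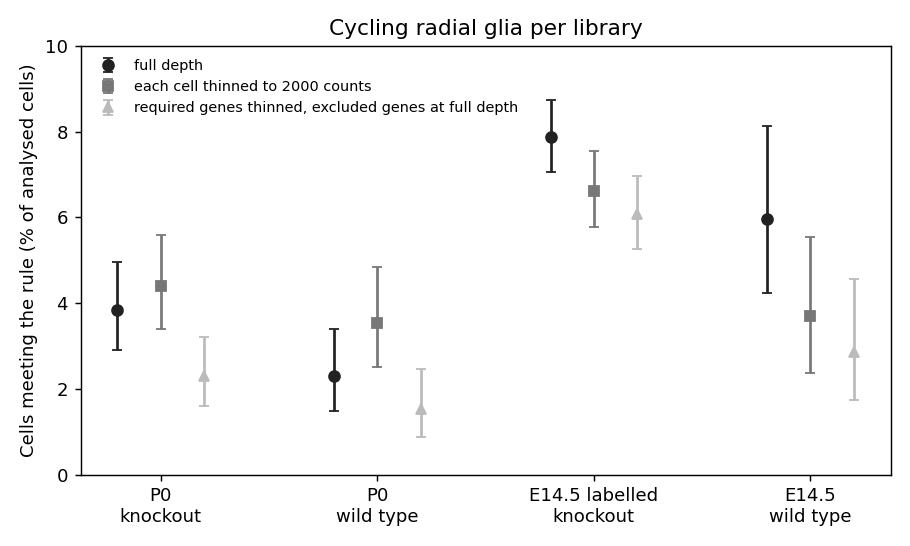
Share of analysed cells that met the rule for cycling radial glia (y axis, percent) in each library at full depth, after thinning every cell to 2000 counts, and with only the required genes thinned; bars are exact 95% intervals and cover counting error only. The labelled E14.5 KO library stays highest in all 3 readings, whereas P0 WT and E14.5 WT come to 3.54% and 3.69% when all genes are thinned.

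Among all cells that met the radial glia limits, the dividing fraction was larger at E14.5. Those limits do not exclude astrocyte-like cells, and the part of such cells in the P0 fractions was not tested. Members were 55 of 275 such cells in P0 KO (20%, 15.4 to 25.2) and 24 of 145 in P0 WT (16.6%, 10.9 to 23.6). They were 323 of 604 in the labelled E14.5 KO library (53.5%, 49.4 to 57.5) and 37 of 75 in E14.5 WT (49.3%, 37.6 to 61.1). At 2000 counts per cell the fractions were 18.2%, 19.7%, 53.5% and 40.7%, so the order of the ages was kept with thinning. Projection neurons, which do not divide, gave the background: 0.588% of them in P0 KO, 1.13% in P0 WT, 2.68% in the labelled E14.5 KO library and 0.422% in E14.5 WT held 3 or more counts of the division genes. Their median depths were 4616, 4506, 2932.5 and 7118 counts. Within an age, the intervals of the KO or KO-labelled and the WT fraction overlapped.

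Most members carried more G2 and mitosis than S phase counts. With members thinned to 2000 counts, the G2 and mitosis list outweighed the S phase list in 42 of 55 members of P0 KO (76.4%, 63.0 to 86.8), 19 of 24 of P0 WT (79.2%, 57.8 to 92.9), 225 of 286 of the labelled E14.5 KO library (78.7%, 73.5 to 83.3) and 29 of 37 of E14.5 WT (78.4%, 61.8 to 90.2). These 4 shares lie within each other's intervals. The rule asks for genes that peak in G2 and mitosis, so this balance describes the rule as well as the cells. Per member the median S phase sum was 5 in P0 KO, 5 in P0 WT, 11 in the labelled E14.5 KO library and 8 in E14.5 WT.

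Compared with radial glia outside division, the members differed in the machinery of division and in a small set of other genes. The comparison class held cells with 0 division counts under the same other limits, 197 in P0 KO, 100 in P0 WT, 204 in the labelled E14.5 KO library and 29 in E14.5 WT, and counts were summed per library. In edgeR's quasi-likelihood test with library as a block, 810 of 9635 genes passed a Benjamini-Hochberg adjusted p of 0.05, or 8.41%, with 556 higher (5.77%) and 254 lower (2.64%). The 4 animals of this test span both ages and labels. Dividing cells were deeper, by median 6277 against 5059 counts in P0 KO and 3699 against 3072 in the labelled E14.5 KO library.

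Because cells were sorted on division genes, the next values are a description without a test. The median log2 fold change was 5.33 over 54 G2 and mitosis genes and 1.94 over 42 S phase genes, beside -0.02 over all genes tested. Ccnb1 had 56, 48, 399 and 46 counts in members of P0 KO, P0 WT, the labelled E14.5 KO library and E14.5 WT, against 1, 1, 2 and 1 outside division. Bub1, a kinase of the spindle checkpoint, had 23, 18, 304 and 42 counts, against 0, 0, 2 and 0. Cdc25c, the phosphatase that activates the mitotic kinase, had 43, 25, 110 and 29, against 0, 1, 0 and 0. Nuf2 and Ttk, of the kinetochore and its checkpoint, behaved alike, with 354 and 141 counts in labelled E14.5 KO members and 4 and 1 outside division. The remaining leading genes were Depdc1a, Cdca5, Iqgap3, Arhgef39 and 1 of 2 features named 2700099C18Rik, each at 0 counts outside division in all 4 libraries. A list of microcephaly and spindle pole genes had a median of 1.56 over 16 genes. Its highest was Aspm, the spindle pole protein whose loss causes microcephaly in humans, with 83, 50, 516 and 67 counts in members, against 3, 0, 7 and 0 outside division. Knl1, a kinetochore scaffold from the same list, had 49, 33, 466 and 83 counts in members, against 2, 3, 3 and 2.

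Of 21 regulators of the step from G1 into S phase, 8 rose and 1 fell in members, beside 5.77% and 2.64% of all genes. These genes belong to the cycle on which the classes were sorted. Their calls and adjusted p-values are therefore no support independent of that sorting. Cdkn2c, an inhibitor of the G1 kinases, stood at 111, 108, 81.2 and 55.1 CPM (scaled by the trimmed mean of M values, TMM, in all values of this test) in members of P0 KO, P0 WT, the labelled E14.5 KO library and E14.5 WT, against 23.5, 12.8, 1.29 and 10.8 outside division. It was higher in all 4 libraries, with a log2 fold change of 2.98 ± 0.42 (SE, edgeR adjusted p = 0.00103). Rbl1, a pocket protein that binds E2F factors, rose by 2.05 ± 0.32 (adjusted p = 0.00207) and Ccne1, the cyclin of the G1 to S step, by 2.75 ± 0.56 (adjusted p = 0.0108). E2f3 rose by 1.55 (adjusted p = 0.00691) and Cdk4, a G1 kinase, by 0.74 (adjusted p = 0.00848). These 5 calls held with any 1 library left out, while Ccne1 and E2f3 had adjusted p of 0.0515 and 0.195 when all cells were thinned. Mycn rose by 1.02 (adjusted p = 0.0185), but reached 0.13 without the labelled E14.5 KO library. Cdk6 at 0.76, Cdkn2d at 1.14 and Cdkn1a, a stress-induced inhibitor, at -1.53 passed in all 4 libraries together. Each lost its call without P0 KO (adjusted p = 0.136, 0.057 and 0.0827) and without E14.5 WT (0.223, 0.0796 and 0.0982), and Cdk6 and Cdkn1a also without the labelled E14.5 KO library (0.168 and 0.138).

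Of 20 astrocyte genes tested, 5 fell in members relative to radial glia outside division and none rose, beside 2.64% of all genes that fell, and the list median was -0.60. The limits of the comparison class do not exclude astrocyte-like cells, and their part in these values was not tested. Of 4 choroid plexus markers 3 fell as well, with a median of -2.94, and the part of choroid plexus RNA in the astrocyte values was not tested. Slc1a2, the glutamate transporter GLT-1, stood at 795, 594, 62.4 and 73.4 CPM in members, against 1498, 1016, 135 and 237.5 outside division, lower in every library (log2 -1.07 ± 0.16, edgeR adjusted p = 0.00179). Sparcl1, a secreted astrocyte protein, was lower by -1.30 ± 0.22 (adjusted p = 0.0040). Both calls held with any 1 library left out and were lost without the library block (adjusted p = 0.742 and 0.706). Without the cells holding non-neuronal markers, Slc1a2 stood at -1.17 and Sparcl1 at -0.92 (edgeR adjusted p = 0.00063 and 0.0091). Aqp4 and Gfap fell by 1.42 and 1.48, but they are counted almost only at P0, and without P0 KO their adjusted p was 0.402 and 0.364, and without P0 WT 0.093 and 0.113. On an outer radial glia list, 2 of 9 fell: Slco1c1, a thyroid hormone transporter, and Itgb5, an integrin subunit. Without the cells holding non-neuronal markers, Slco1c1 stood at -0.57 and lost its call (edgeR adjusted p = 0.294), while Itgb5 stood at -1.08 (adjusted p = 0.0398).

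Few genes of radial glia themselves separated the members from radial glia outside division. Of 22 identity genes, 3 rose and 1 fell, beside 5.77% and 2.64% of all genes, and the list median was 0.30. Psat1, an enzyme of serine synthesis, stood at 407, 479, 465 and 349 CPM in members, against 267, 344, 152 and 112 outside division (log2 1.06 ± 0.22, edgeR adjusted p = 0.0109). It was higher in all 4 libraries, and its adjusted p was 0.0556 without the labelled E14.5 KO library and 0.0796 without E14.5 WT. Nes and Vim, the intermediate filaments of progenitors, rose by 0.67 and 0.55, and both lost the call without P0 KO (adjusted p = 0.084 and 0.063), the labelled E14.5 KO library (0.235 and 0.16) or E14.5 WT (0.231 and 0.266). Fabp7, the fatty acid binding protein of radial glia, did not pass, with a log2 value of 0.28 ± 0.24 (adjusted p = 0.56).

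Among heterochronic genes, which are high in early progenitors and decline with age, 2 of 4 tested rose in members. Hmga2, a chromatin protein of young stem cells, had 2, 1, 81 and 21 counts in members, against 1, 0, 9 and 6 outside division, in the library order used above. It was 2.01 ± 0.49 higher on the log2 scale (edgeR adjusted p = 0.0292). The evidence is from E14.5, where it stood at 60.9 and 48.2 CPM in members of the labelled E14.5 KO library and E14.5 WT, against 11.6 and 21.6 CPM outside division. The call held without P0 KO (0.048) or P0 WT (0.0257), Hmga2 was not tested without either E14.5 library, and DESeq2 gave an adjusted p of 0.157. Igf2bp1, an RNA-binding partner of the same programme, rose by 0.88 ± 0.23 (adjusted p = 0.0391), and lost the call without P0 KO (0.12), the labelled E14.5 KO library (0.0925) or E14.5 WT (0.221).

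Several signalling lists showed few or no calls between the 2 states. In FGF and ERK signalling 0 of 15 genes passed in edgeR, in BMP and Id signalling 0 of 13, in cholesterol synthesis 0 of 21, among gliogenic factors 0 of 16, among apical junction genes 0 of 17 and among immediate early genes 0 of 13. A missed threshold does not show equal levels. In Notch signalling 1 of 16 passed, the ligand-like Dner, which fell by 1.07 (adjusted p = 0.0106, and 0.055 without P0 KO). In hedgehog signalling 1 of 10 passed, the co-receptor Gas1, which rose by 0.81 (adjusted p = 0.0306). Gas1 reached 0.17 without the labelled E14.5 KO library and 0.16 without E14.5 WT, and with thinned cells its difference was 0.08. Of 7 projection neuron markers 2 fell, with a median of -1.09. Runx1t1, a co-repressor of differentiating neurons and among the 10 genes with the largest fall, had 2, 0, 74 and 17 counts in members and 51, 40, 248 and 67 outside division (log2 -2.69 ± 0.27, edgeR adjusted p = 7.3e-05). Bcl11b, a factor of deep-layer projection neurons from the marker list, fell by 2.21 ± 0.39 (adjusted p = 0.0047). Unc5c, a netrin receptor, had 5 counts in members over the 4 libraries and 51 outside division.

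**Figure D2:**
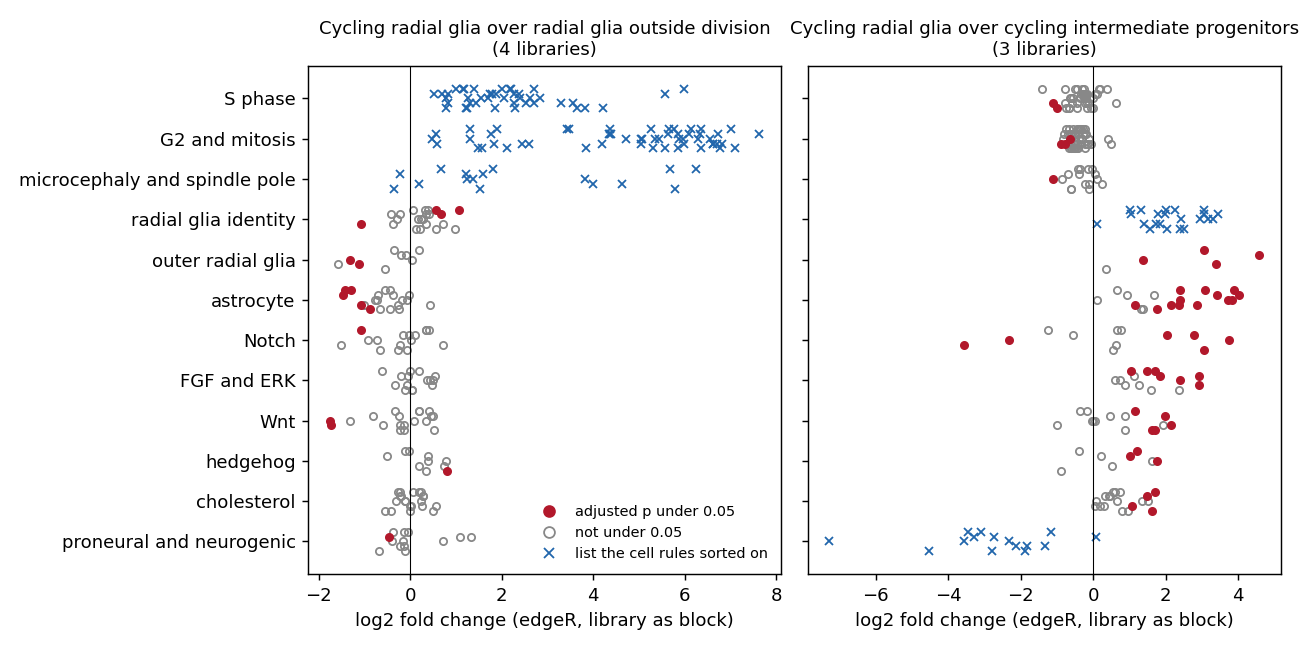
Each mark is 1 gene of a list (rows), placed by its edgeR log2 fold change (x axis) in cycling radial glia over radial glia outside division (left, 4 libraries) and over cycling intermediate progenitors (right, 3 libraries); filled marks passed an adjusted p of 0.05 and crosses belong to lists the cell rules sorted on. On the left most signalling genes lie near 0 and astrocyte genes lie below it, and on the right astrocyte, FGF and ERK and outer radial glia genes lie above 0 with 13 of 19, 7 of 14 and 4 of 5 passing.

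Cycling intermediate progenitors, the neuron-producing daughters of radial glia, met the same division limit but held at least 2 Eomes counts. They numbered 32 in P0 KO, 9 in P0 WT, 90 in the labelled E14.5 KO library and 16 in E14.5 WT, and P0 WT was left out of the test for having under 10. Over the 3 libraries, 574 of 7953 genes passed in edgeR, or 7.22%, with 328 higher in cycling radial glia (4.12%) and 246 lower (3.09%). As the rules sort on identity, the radial glia list (median 2.02 over 22 genes) and the proneural list (median -2.72 over 15) are given without a test. Only the radial glia class had to hold counts of Sox2, Pax6, Hes5 and Slc1a3. The calls on Notch, FGF, Id, Wnt, hedgehog, cholesterol, astrocyte and outer radial glia genes below are therefore not independent of the sorting. Neurog2, the proneural factor, had 12, 138 and 32 counts in cycling radial glia of P0 KO, the labelled E14.5 KO library and E14.5 WT, against 195, 334 and 138 in the progenitors. Neurod4 had 0 counts in cycling radial glia of all 3 libraries, against 26, 9 and 7.

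Genes of the Notch pathway moved in both directions. Of 12 Notch genes, 4 rose and 2 fell in cycling radial glia. Hes1, a repressor downstream of Notch, stood at 126, 229 and 455 CPM in cycling radial glia of P0 KO, the labelled E14.5 KO library and E14.5 WT, against 14.7, 32.4 and 44.7 in progenitors (log2 3.05 ± 0.26, edgeR adjusted p = 0.000189). Lfng, which modifies the receptor, rose by 3.75 ± 0.49 (adjusted p = 0.00173) and the receptor Notch2 by 2.78 ± 0.43 (adjusted p = 0.00492). The ligand Dll1 fell by 2.33 ± 0.45 (adjusted p = 0.0142) and Mfng, another modifier, by 3.56 ± 0.29 (adjusted p = 0.000179). Those of Hes1, Lfng, Notch2 and Mfng held with any 1 of the 3 libraries left out, whereas Dll1 reached 0.194 without the labelled E14.5 KO library.

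Receptors and feedback genes of FGF signalling were higher in cycling radial glia, in 7 of 14 tested, with none lower. Over all genes 4.12% rose, the share to set beside each list count in this paragraph. Fgfr3 stood at 241, 208 and 142 CPM in cycling radial glia, against 40.3, 24.9 and 55.9 in progenitors (log2 2.40 ± 0.33, edgeR adjusted p = 0.00222). Fgfbp3, which carries FGF ligands, rose by 2.92 ± 0.47 (adjusted p = 0.00617), the receptor Fgfr1 by 1.70 ± 0.36 (adjusted p = 0.0219) and the inhibitor Il17rd by 2.91 ± 0.62 (adjusted p = 0.0223). In E14.5 WT 90.4% of the Il17rd counts lay in 1 cell. Etv5, Spred1 and Fgfr2 also passed in all 3 libraries together. Etv5 and Spred1 lost the call without P0 KO (0.127 and 0.183), and Spred1 and Fgfr2 without the labelled E14.5 KO library (0.0565 and 0.107). Of the Id genes, which block proneural factors, Id3 rose by 3.63 ± 0.46 (adjusted p = 0.00148) and Id4 by 2.44 ± 0.18 (adjusted p = 0.000122). In Wnt signalling 5 of 15 rose, among them the secreted antagonist Sfrp1 by 1.16 ± 0.20 (adjusted p = 0.00765). In hedgehog signalling 3 of 8 rose, with Gas1 at 1.76 ± 0.39 (adjusted p = 0.0256). In cholesterol synthesis 4 of 19 rose, with Hmgcs1, which feeds the pathway, at 1.70 ± 0.18 (adjusted p = 0.000582) and higher in all 3 libraries.

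Astrocyte and outer radial glia genes were on the radial glia side as well. Of 19 astrocyte genes 13 rose, and Aldoc, a glycolytic enzyme of astrocytes, stood at 477, 371 and 465 CPM against 40.3, 49.8 and 22.3 in progenitors. Of 5 outer radial glia genes 4 rose. Tnc, an extracellular matrix protein of the stem cell niche, had 405, 180 and 109 counts in cycling radial glia, against 14, 2 and 1 in progenitors (log2 4.58 ± 0.28, edgeR adjusted p = 6.2e-05). Ptprz1, a receptor phosphatase, rose by 3.05 ± 0.26 (adjusted p = 0.000179). Genes of motile cilia, Gm973, Cfap251, Rsph4a, Enkur and Cfap126, stood among the 10 with the largest rise. Without cells that held 10 or more counts of a glial, ependymal, vascular, meningeal or choroid marker list, 484 genes rose and 374 fell. Of those 10 leading genes only Tnc at 4.77 and Igfbp5, a binding protein of insulin-like growth factors, at 4.10 were then still abundant enough to test.

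Few genes of G2, mitosis or S phase passed against the progenitors. Of 54 G2 and mitosis genes 3 fell, and of 43 S phase genes 2 fell, with none higher at the threshold, shares near the 3.09% of all genes that fell. The list medians were -0.43 and -0.26, beside 0.00 over all genes. Of 19 regulators of the step from G1 into S phase 4 fell and 0 rose, a share above 3.09%. Without cells holding non-neuronal markers, 7 of 54 G2 and mitosis genes fell, 2 of 42 S phase genes and 4 of 19 G1 regulators. In that setting 1 G1 regulator rose, and more genes were called over all genes as well. Ube2c, a ubiquitin carrier of mitotic exit, fell by 0.90 (edgeR adjusted p = 0.0419), and Rrm2, the ribonucleotide reductase subunit, by 0.98 (adjusted p = 0.0153). E2f1, the G1 to S factor, fell by 1.37 ± 0.23 (adjusted p = 0.00765), with 88.4, 41.2 and 53.0 CPM in cycling radial glia against 242, 94.6 and 151 in progenitors. Cdk4 and Cdk6 fell by 0.71 and 0.99, and lost the call without P0 KO (adjusted p = 0.186 and 0.109), Cdk4 also without E14.5 WT (0.0908). Ube2c did so without P0 KO (0.0605) and without E14.5 WT (0.19). Progenitors were the deeper cells in E14.5 WT, with a median of 11996 against 8024 counts. After thinning to 2000 counts Ube2c, Rrm2, Cdk4 and Cdk6 no longer passed, with adjusted p of 0.43, 0.13, 0.067 and 0.39.

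Between the ages, the members at P0 held more RNA of astrocyte genes and less of genes of early progenitors. The rule set no limit on astrocyte genes. A change within radial glia and a change in which cells met the rule therefore cannot be told apart. For each gene the gap is the log2 ratio of the lower P0 library over the higher E14.5 library where P0 is higher, the reverse where it is lower, and 0 where the ages overlap. Of 9323 genes with enough counts, 327 had a gap past 2-fold (3.51%), with 216 higher at P0 (2.32%) and 111 lower (1.19%). The ages did not overlap in 19.9% of genes in the higher and 19.2% in the lower direction. Higher genes were 66.1% of those past 2-fold, and 53.8% under TMM scaling, so the balance of directions depends on the scaling. Within WT alone, 851 of 4567 genes were past 2-fold (18.6%), with 373 higher at P0 (8.17%) and 478 lower (10.5%). Within the KO-labelled pair 1512 of 8395 were (18.0%), with 724 higher (8.62%) and 788 lower (9.39%). Each age has 2 animals, 1 of them under each label. Across these 4 animals edgeR's quasi-likelihood test, added after the data were seen, called 22 of 7764 genes at an adjusted p of 0.05 (0.283%), all 22 of them higher at P0 (0.283%) and none lower, with 497 higher and 292 lower at an unadjusted p under 0.05. The number called depended on the members: it was 104 (87 higher, 17 lower) without the 3 deep E14.5 WT cells and 313 (244 and 69) without members holding other types' markers. It was 0 without P0 KO or without P0 WT, 289 without the labelled E14.5 KO library and 453 without E14.5 WT, where the lone animal of an age is assumed to vary like the others.

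Of 20 astrocyte genes measured, 19 were higher at P0 in both libraries and 10 had a gap past 2-fold, with a median gap of 1.15 beside 0 over all genes. In the edgeR test across animals 6 of 20 rose at P0 and none fell: Slc1a2, Slc4a4, Sparcl1, Aqp4, Cst3 and Bcan. Slc1a2 had 782 and 559 CPM in P0 KO and P0 WT, against 60.4 and 69.3 CPM in the labelled E14.5 KO library and E14.5 WT, a gap of 3.01. Slc4a4, a bicarbonate transporter of astrocytes, had 424 and 508 CPM, against 48.0 and 52.0, a gap of 3.03. Sparcl1 had 1102 and 2058 CPM, against 169 and 162, a gap of 2.71. In all 3 the P0 libraries lay above both E14.5 libraries, and 71.9% of the Slc1a2 counts of E14.5 WT lay in 1 cell. Without the deep cells these gaps were 3.21, 3.14 and 2.29. Across animals edgeR gave Slc1a2 a log2 fold change of 3.38 ± 0.33 (adjusted p = 0.00975), Slc4a4 3.21 ± 0.31 (adjusted p = 0.00975) and Sparcl1 3.24 ± 0.38 (adjusted p = 0.0162). Each call was lost without either P0 animal, with adjusted p between 0.131 and 0.194. Hepacam, an adhesion protein of astrocytes, had 65 and 30 counts at P0, against 3 and 0 at E14.5, a gap of 4.70 when the 0 is set to a floor of 3 counts, and 1.32 with cells thinned to 2000 counts. Aqp4, the water channel of astrocyte endfeet, had 39 and 22 counts, against 3 and 0. Gfap, the astrocyte filament, had 40 and 4 counts at P0, against 1 and 1, so P0 WT is low too. Gja1, the connexin of radial glia and astrocytes, did not differ as much, with 221 and 286 CPM against 203 and 162, a gap of 0.12.

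Outer radial glia genes followed the same direction in 7 of 8, with 6 past 2-fold and a median gap of 1.37. These genes were described as outer radial glia markers in primate cortex, and several also mark mouse astrocytes. Ptprz1 had 3061 and 3742 CPM at P0, against 685 and 661 at E14.5, a gap of 2.16. Tnc had 1052 and 1531 CPM, against 131 and 236, also a gap of 2.16. Both rose in edgeR across animals, by 2.33 ± 0.28 (adjusted p = 0.019) and 2.81 ± 0.40 (adjusted p = 0.0355), and not without P0 KO (0.23 for both) or P0 WT (0.368 and 0.397). Hopx, a homeodomain protein, had 109 and 69.9 CPM, against 22.6 and 21.7, a gap of 1.63, or 1.16 without the deep cells (edgeR adjusted p = 0.0992). Among gliogenic factors 10 of 16 were higher at P0 and 2 passed 2-fold, beside 19.9% and 2.32% of all genes. Egfr, the growth factor receptor of late progenitors, had 39 and 15 counts, or 101 and 95.3 CPM, against 6 and 2 counts, or 4.36 and 4.33 CPM (edgeR log2 4.45 ± 0.48 across animals, adjusted p = 0.0135, and 0.276 and 0.167 without P0 KO and without P0 WT). Stat3, the transducer of astrocyte-inducing cytokines, had 172 and 63.5 CPM, against 23.3 and 23.8. The nuclear factors Nfia, Nfib and Nfix, which prepare the switch to glia, were at like levels, and Nfia had 852 and 985 CPM, against 737 and 823, a gap of 0.05. Other genes with large gaps were the proteoglycan Ncan, the prohormone enzyme Cpe, the membrane protein Mmd2, the G protein subunit Gng12 and the calcium sensor Ncald, with gaps of 2.31, 2.15, 2.13, 2.05 and 2.00.

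In the other direction stood the heterochronic genes, where all 4 measured were lower at P0 and 3 passed 2-fold. None of the 4 passed in edgeR across animals, and 3 did without the deep E14.5 WT cells. Hmga2 had 2 and 1 counts in P0 KO and P0 WT, against 81 and 21 in the labelled E14.5 KO library and E14.5 WT, or 5.20 and 6.35 CPM against 58.9 and 45.5, a gap of -2.84. Igf2bp1 had 46.8 and 31.8 CPM, against 176 and 149, a gap of -1.68. Igf2bp2 had 15.6 and 6.35 CPM, against 83.7 and 80.1, a gap of -2.36, and Igf2bp3 had 54.6 and 25.4 CPM, against 161 and 97.5, a gap of -0.84. The P0 values rest on 1 to 21 counts per gene, and with cells thinned to 2000 counts the Igf2bp2 gap closed to 0 while that of Igf2bp1 was -1.10. Lin28a, the founding member of this programme, had 0 counts in all 4 libraries. Rbpj, the DNA-binding factor of Notch signalling, had 39.0 and 31.8 CPM at P0, against 107 and 113, a gap of -1.46 that was -0.05 with thinned cells, while the receptor Notch1 had 411 and 502 CPM, against 362 and 208, a gap of 0.18.

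Of 9 hedgehog genes 1 was higher and 4 were lower at P0, beside 19.9% and 19.2% of all genes. Past 2-fold were 1 and 3 of them, and 0 of 9 passed in edgeR across animals. Gli1, a direct target and readout of the pathway, had 15 and 8 counts at P0, against 5 and 2 at E14.5, a gap of 3.17. Gli2, an activating factor, had 7.80 and 12.7 CPM, against 48.0 and 28.2, a gap of -1.15, and the co-receptor Cdon had 93.5 and 88.9 CPM, against 247 and 195, a gap of -1.06. Sufu, which holds the Gli factors back, had 3 and 1 counts, against 35 and 11, a gap of -1.61. Gli3, the repressor, had 107 and 152 CPM, against 259 and 217, a gap of -0.51. In cholesterol synthesis 13 of 20 genes were higher at P0 and none lower, beside 19.9% and 19.2% of all genes. Only 1 of the 20 was past 2-fold, the median gap was 0.28, and 0 of 19 passed in edgeR across animals. Of the division lists, 7 of 54 G2 and mitosis genes were higher at P0 and 2 lower, and 1 of 43 S phase genes was higher and 9 lower, and only the share of lower S phase genes reached that of all genes, 19.2%. The radial glia identity list split too: Fabp7 had 9773 and 13302 CPM at P0, against 2594 and 3812, a gap of 1.36, while Vim had 1068 and 1016 CPM, against 1625 and 1393, a gap of -0.38. Efnb1, an ephrin, and Mif, a cytokine-like enzyme, were lower at P0 with gaps of -1.05 and -0.94.

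The age pattern was also read in radial glia outside division of the same libraries, a class with no shared cells. The median astrocyte gap was 1.15 in members and 2.11 outside division over the same 20 genes. For outer radial glia genes it was 1.37 and 1.46 over 8 genes, for identity genes 0 and 1.01 over 22, and for hedgehog genes 0 and 0.65 over 9. The difference between the classes was not tested. Projection neuron markers had a median gap of -0.24 in members and -0.47 outside division over 6 genes. Without members that held 10 or more counts of another cell type's list, 391 genes had a gap past 2-fold and the astrocyte list had 13 past it. The astrocyte list was not among those used to leave members out. With cells thinned to 2000 counts, 203 genes passed and the astrocyte median was 1.15.

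**Figure D3:**
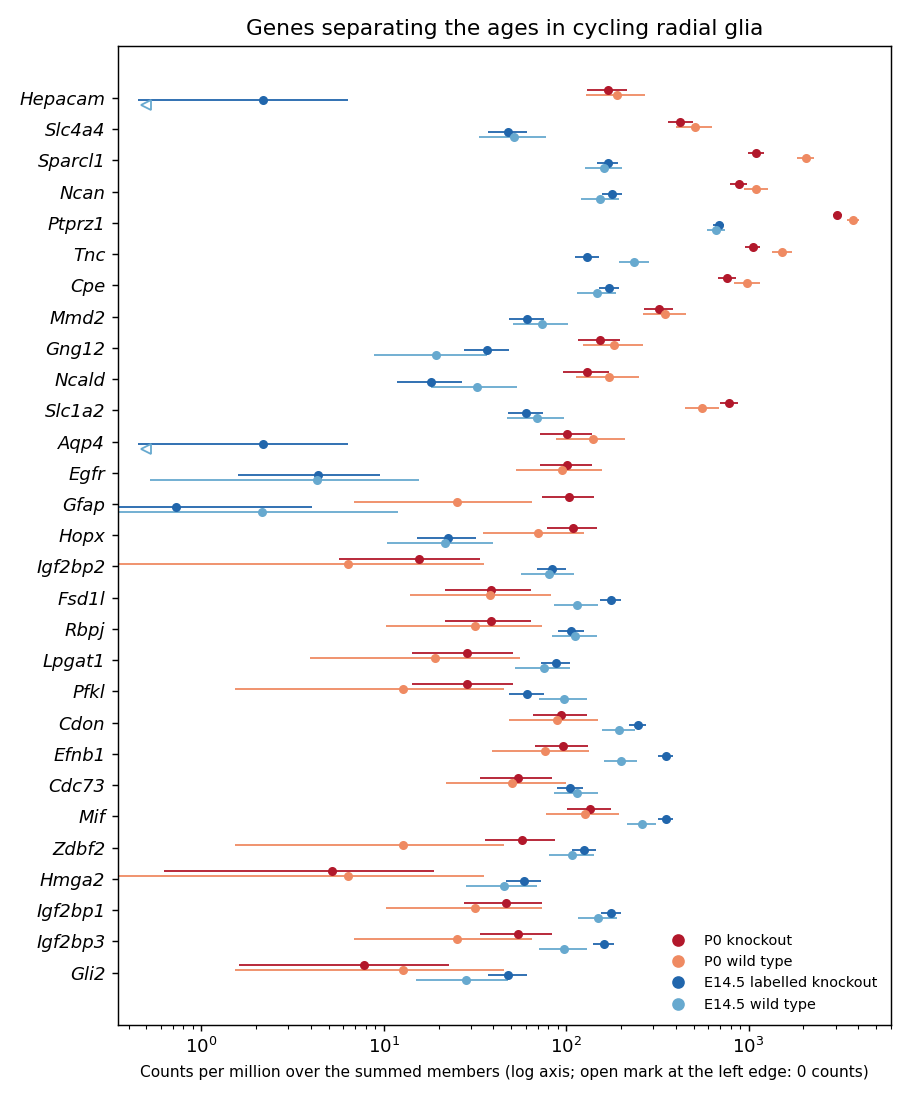
CPM over the summed cycling radial glia of each library (x axis, log scale) for the genes that lead the age comparison and for list genes named in the text (rows), with exact Poisson 95% intervals that cover counting error only. From Hepacam to Hopx both P0 libraries lie right of both E14.5 libraries, and from Igf2bp2 to Gli2 they lie left.

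At P0, 452 of 4290 genes differed past 2-fold between KO and WT members, or 10.5%, with 315 higher in KO (7.34%) and 137 lower (3.19%). P0 WT holds 24 members and 157423 counts, so small sums dominate this number. With at least 100 counts over both sums 31 genes passed, 15 higher and 16 lower. With cells thinned to 2000 counts 89 passed, 48 higher and 41 lower. Under TMM scaling 283 were higher and 161 lower, so the balance of directions depends on the setting. There is no replicate check on any of these ratios. Over the genes tested the median log2 ratio was 0.04.

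Mt3 and Mt2 were among the lower genes in KO. Mt3, the brain metallothionein that binds zinc and copper, had 145 counts in KO members and 193 in WT members, or 377 and 1226 CPM, a log2 ratio of -1.70 (-2.02 to -1.38). Thinned to 2000 counts per cell its ratio came to -0.99. It was counted in 37 of 55 KO members and 18 of 24 WT members. Mt2, the stress-inducible family member, had 273 and 832 CPM, a ratio of -1.61 (-1.99 to -1.23). Hes1 had 122 CPM in KO and 324 in WT, a ratio of -1.41 (-2.01 to -0.81), while Hes5 had 925 and 1264 (-0.45, -0.70 to -0.19). Fzd2, a Wnt receptor, had 85.8 and 254 CPM (-1.57, -2.28 to -0.87). Cdkn1c, the p57 inhibitor of division, had 57.2 and 267 CPM, but 78.6% of its WT counts lay in 1 cell. Insm1, a factor of progenitors that leave the stem cell state, had 114 and 324 CPM, with 54.9% of the WT counts in 1 cell.

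Of the 22 identity genes 17 were lower in KO, with a median of -0.44, and of 15 cholesterol genes 12 were lower, with a median of -0.47, where 47.1% of all genes were below 0. Pdpn, a surface glycoprotein, had 125 CPM in KO and 241 in WT, and Ednrb, an endothelin receptor, had 405 and 667. Hmgcs1 had 826 and 1283 CPM and Sqle, an epoxidase of the same pathway, had 153 and 273. Thinned to 2000 counts the identity median was 0.04 and the cholesterol median -0.29. Meningeal marker counts differed in the same direction, with 317 CPM in KO and 972 in WT, where 83.7% lay in 1 cell. Their part in these lists was not tested. Without members holding other types' markers, the medians were -0.35 and -0.44.

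Higher genes in KO rested on very low WT counts. Fzd1, another Wnt receptor, had 41 counts in 16 KO members and 0 in WT, at least 2.48 higher on the log2 scale against a floor of 3 counts over the WT sum. Setdb1, a histone methyltransferase, had 58 and 3 counts (ratio 2.98, 1.36 to 5.30), and Foxo1, a forkhead factor of stem cell quiescence, had 57 and 4 (2.54, 1.11 to 4.47). Prox1, a factor of newborn neurons and hippocampal progenitors, had 35 counts in 14 KO members and 1 in WT (3.84, 1.27 to 9.18). Gfap had 40 and 4 counts (2.03, 0.56 to 3.98) and Stat3 66 and 10 (1.43, 0.46 to 2.56). Fezf2, the factor of deep-layer neurons and their progenitors, had 33 and 3 counts (2.17, 0.50 to 4.52). Thrsp, 1110038F14Rik, Ecrg4, Ppdpf, St3gal5 and Naxd completed the 10, each with 1 or 2 WT counts. Ependymal markers were higher in the same direction, with 470 CPM in KO and 19.1 in WT, of which 75.1% in KO lay in 1 cell, and projection neuron markers had 517 and 248 CPM. Their part in these ratios was not tested. Of 10 dorsal patterning genes 6 were above 0, near the 52.9% of all genes, with a median of 0.40. Lhx2, the selector of cortical identity, had 569 CPM in KO and 337 in WT (0.76, 0.32 to 1.22). The astrocyte list, at -0.31, and the G2 and mitosis list, at -0.24 with 39 of 51 lower, changed sign with thinning, to 0.13 and 0.12.

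At E14.5, 1351 of 8460 genes differed past 2-fold between the labelled KO library and WT, or 16.0%, with 826 higher (9.76%) and 525 lower (6.21%). The median over all genes was 0.17, so a value near it marks a gene that moved with the bulk. Label, sex and depth differ together between these animals and cannot be told apart. Without the 3 WT cells of over 30000 counts, 787 genes were past 2-fold higher and 350 lower.

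Division genes were higher in the labelled KO members. Of 54 G2 and mitosis genes 52 were above 0, where 61.0% of all genes were, and 20 were past 2-fold, with a median of 0.92, and without the 3 deep WT cells 47 were above 0 and 5 past 2-fold, with a median of 0.42. Ccnb1 had 399 counts in labelled KO members and 46 in WT members (1.54, 1.10 to 2.02), and 1.06 without the deep cells. Mki67 and Top2a, which the rule uses, had ratios of 0.81 and 0.66. Of 43 S phase genes 41 were above 0, with a median of 0.73, and without the deep cells 30 were, with a median of 0.22. Thinned to 2000 counts, the 2 medians were 0.18 and 0.34. The labelled KO members were the shallower ones, with a median of 3699 against 8024 counts, and the part of depth was not tested.

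Dorsal patterning genes were also higher in the labelled KO members, 12 of 13 beside 61.0% of all genes, with a median of 0.83. Without the deep WT cells 9 of 13 were higher, with a median of 0.28, beside a median of 0.12 over all genes. Ventral progenitor genes had 80.8 CPM in labelled KO members and 635 in WT members, with 57.7% of the WT counts in 1 cell, ependymal markers 4.37 and 310, and choroid plexus markers 701 and 31345. The part of such cells in the dorsal values was not tested. Lhx2 had 600 CPM in labelled KO members and 238 in WT members (1.33, 1.04 to 1.63), and 0.98 without the deep cells. Emx1, a marker of dorsal cortex, had 88.8 and 28.2 CPM (1.66, 0.83 to 2.61), and 0.98 without them. Mycn had 191 and 49.8 CPM (1.94, 1.32 to 2.62), and 1.32 without the deep cells. Sox21, a progenitor factor, had 235 and 75.8 CPM (1.63, 1.13 to 2.18), and 0.99 without them.

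FGF feedback genes passed 2-fold only with the deep WT cells included. Of 12 measured, 10 were below 0 and 5 past 2-fold, and without those cells 6 were below 0 and none past 2-fold. Spry1, an inhibitor of the pathway, had 34 counts in labelled KO members and 69 in WT members, and 94.2% of the WT counts lay in 1 cell. Its ratio was -2.59 with that cell and 0.83 without the deep cells, and for Il17rd, with 90.4% in 1 cell, it was -2.27 and 0.75. Apoe, the lipid carrier of astrocytes and choroid plexus, had a ratio of -3.15, with 60.4% of its WT counts in 1 cell, and -0.92 without the deep cells.

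Other lower genes did not depend on them. Mt3 had 139 CPM in labelled KO members and 418 in WT members (-1.59, -1.89 to -1.29), and -2.06 without the deep WT cells. Mlc1, a membrane protein of astrocytes, had 67.7 and 221 CPM (-1.71, -2.13 to -1.29), and -2.09 without them. Aldh1l1, the folate enzyme of astrocytes, had 17.5 and 82.3 CPM (-2.24, -3.04 to -1.46), and -2.84 without them. Hes1 had 226 and 409 CPM (-0.86, -1.12 to -0.59), and -0.88 without them. Atp5me, a subunit of the ATP synthase, had 46.6 and 282 CPM (-2.60, -3.05 to -2.15), and -2.61 without them. Ccn2, a matrix protein, had 3 and 27 counts, and 3 and 25 without them. Mt3, Mt2 and Hes1, singled out after their values were seen, were lower in the KO or KO-labelled members at both ages, in separate animals. At E14.5 Mt2 had 49.5 CPM in labelled KO members and 130 in WT members (-1.39, -1.92 to -0.87), with 45% of the WT counts in 1 cell. With cells thinned to 2000 counts the ratios at P0 and E14.5 were -0.99 and -2.07 for Mt3 and -0.49 and -0.10 for Hes1. Since Tsku RNA was present in the labelled E14.5 KO library, the pair of comparisons does not repeat 1 genotype difference. The genes highest in the labelled KO members rested on 1 to 3 WT counts each.

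**Figure D4:**
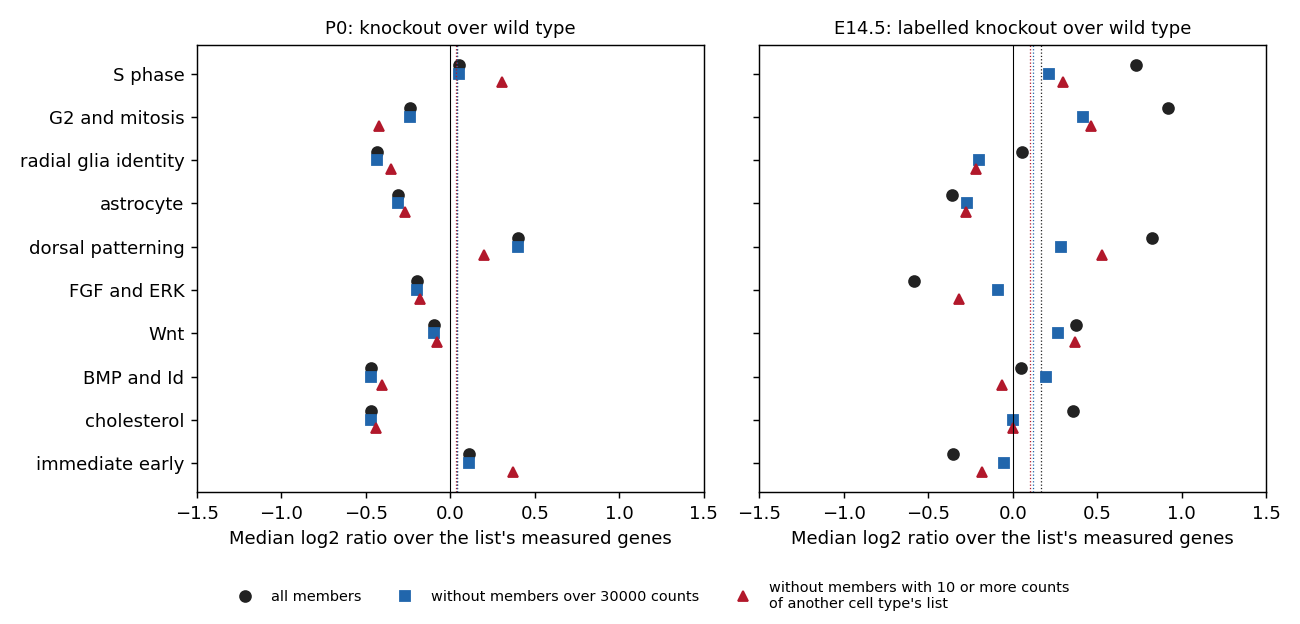
Median log2 ratio of KO over WT members at P0 (left) and of the labelled KO over WT members at E14.5 (right) for 10 gene lists (rows), with all members, without members over 30000 counts, and without members holding 10 or more counts of another cell type's list; dotted lines are the medians over all genes. At E14.5 the medians of the G2 and mitosis, S phase, dorsal patterning and FGF and ERK lists move towards 0 when the deep cells are left out, and at P0, which has no such cell, the circles and squares coincide.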

How the data were processed

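Raw gene counts from 4 single-cell libraries were used as the authors deposited them, 1 column per barcode and 57126 features, with 1 mouse per group. Per the submitters' processing notes FastQC 0.12.1, R 4.3.2, Seurat 5 and GRCm39 were used. The aligner, the counter and the use of molecular identifiers are not stated there or in the labels. Cells below 500 counts or 300 genes, or above 10% mitochondrial counts, were dropped, and counts were summed per library and class with python 3.11.15, scipy 1.17.1 and pandas 2.3.3. Ratios of gene counts between libraries carry exact binomial 95% intervals and need 30 counts over the sums. CPM levels carry exact Poisson intervals. Ratios of shares carry approximate 95% intervals from a normal distribution on the log scale, taken on the mean of the draws where cells were thinned. A fold of 2 is a rule of size. Paired classes were tested with edgeR 4.0.16 in R 4.3.3 (quasi-likelihood, TMM, library as a block, Benjamini-Hochberg), needing 10 cells per sum, and with DESeq2 1.42.0 as an alternative, and the ages with edgeR on 2 animals each, added after the data were seen. The edgeR fits were checked on simulated data. Members, gene lists and tests were chosen with earlier results of these data known. Named genes were the rule's genes and Tsku, list members with the most counts or past 2-fold, and the 10 highest and lowest of each comparison with at least 5 cells and no cell over 20% of the higher library's counts (for edgeR, the 10 largest folds in each direction past an adjusted p of 0.05 with 1 direction in every library). Rule genes, mitochondrial, ribosomal protein, haemoglobin and sex-linked marker genes were left out of those 10. Alternatives were thinning to 1500, 2000 or 3000 counts, stricter limits, TMM scaling, removal of deep or mixed members or high Scrublet scores (scanpy 1.11.5), and each library left out. A few results are not reported here.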

Additional observations from a re-analysis of the deposited data

Results flagged for a closer look

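Of the genes named, 7 had ratios past 2-fold in opposite directions at the 2 ages, KO over WT at P0 against labelled KO over WT at E14.5. With 1 animal per group these differences were not tested. Ccnb1, the mitotic cyclin, had log2 ratios of -1.07 and 1.54, a difference of -2.61. Plk1, the polo kinase of mitosis, had -1.0 and 1.20, a difference of -2.20, and Ect2, which starts cytokinesis, had -1.22 and 1.03, a difference of -2.25. With cells thinned to 2000 counts the P0 ratio of Ccnb1 was 0.39 and that of Plk1 0.03, so these opposite signs did not hold with thinning. Thinning also changes which cells meet the rule. Before it, P0 KO and P0 WT members had like depth, at medians of 6277 and 6157 counts. Hey1, a Notch target, had -1.11 and 1.84, a difference of -2.95. Insig1, which restrains cholesterol synthesis, had -1.05 and 1.01, a difference of -2.06, and Jakmip2 had -1.51 and 1.09, a difference of -2.61. Ecrg4, a secreted peptide precursor abundant in choroid plexus, had 3.62 and -3.11, a difference of 6.72, on 60 against 2 counts at P0 and 28 against 81 at E14.5, where 43.2% of the WT counts lay in 1 cell.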

How the results depend on the processing

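Counting error, 1 animal per group and unequal depth limit these results, and 24 members in P0 WT set the precision at P0. Of the main counts and ratios, 47 alternatives kept direction and size, 30 moved and 1 reversed, and the cause was not tested. The log2 ratio of shares of P0 WT over E14.5 WT was 0.32, -0.059 and -0.27 when cells were thinned to 1500, 2000 and 3000 counts. For P0 KO over the labelled E14.5 KO library it was -0.16 and -0.59 at 1500 and 2000, and for the labelled E14.5 KO library over E14.5 WT 0.95 at 3000 and 1.08 with only the required genes thinned. Genes past 2-fold numbered 89 (P0 labels), 647 (E14.5 labels) and 203 (ages) when thinned to 2000 counts, and 31, 431 and 151 with at least 100 counts. At P0 they were 295 without members of mixed type, an alternative added after seeing the data, as was leaving out deep members. Against radial glia outside division edgeR's 810 calls became 478 in DESeq2, 285 without the library block, and 429 to 756 with a library left out, lowest without the labelled E14.5 KO library. Against cycling intermediate progenitors its 574 calls became 270 in DESeq2, 203 without the library block, 1064 with no filter, 270 with thinned cells, and 340 to 601 with a library left out, lowest without P0 KO. Across the 4 animals edgeR's 22 calls between the ages became 47 with label as a term, 162 with thinned cells, 104 without deep members, 313 without members of mixed type, and 0 to 453 with a library left out. The age gaps of Igf2bp2 and Cdc73 closed to 0 with thinning. At E14.5 the proneural median was -0.052 without members of mixed type, against 0.53 with them, and the projection neuron marker median -0.86 without high doublet scores, against 0.70. For the named genes 2071 values kept their call, 335 kept their sign and lost the threshold, 8 moved and 2 reversed, and of the list medians 333 kept their size, 52 moved and 2 reversed. No paired analysis was possible because, between groups, each group holds 1 animal and no replicate numbers pair animals, and only the cell classes within a library were paired.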
